A study of Homo sapiens with 12 samples.

Results

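A549 cells expressing AHR with S489D (SD) were compared with A549 cells expressing wild-type AHR (WT), over all genes, in the 6 RNA-seq libraries of these 2 lines. The libraries were chosen by their labels, 3 SD and 3 WT out of the 12 libraries of 4 lines. A549 is an established line of human lung adenocarcinoma cells. All 4 lines were made by lentiviral infection with the vector pLV-EF1a-IRES-Hygro, were selected with hygromycin and were grown in RPMI medium with serum. The vector carried HA-tagged wild-type AHR (WT), HA-AHR with S489A (SA), HA-AHR with S489D (SD) or no insert (V), and the AHR gene of A549 cells remained in every line. Each construct was carried by 1 line, so what the construct did and how the lines differ otherwise cannot be told apart. The 3 libraries of a line are called biological replicates in the labels, and nothing in the sources says that they came from separate infections. The p-values therefore measure the spread between these libraries.

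AHR, the aryl hydrocarbon receptor, is a transcription factor that waits in the cytoplasm with chaperones, moves to the nucleus when it binds a ligand, and pairs there with ARNT to bind DNA at sites with the core letters GCGTG. Its best known targets are enzymes that metabolize foreign compounds, such as CYP1A1. PLK1 is a kinase of mitosis, and the study addresses its phosphorylation of AHR at the serine named S489. Alanine at that position cannot be phosphorylated, and aspartate is used to imitate the charge of a phosphate. The codon is shown in the reference genome because S489D is the only designed difference between the SD and WT constructs. It lies at chr7:17339290-17339292 (GRCh38, plus strand), in exon 10 of AHR, and an exon of the overlapping gene ENSG00000283321 covers the same bases. The capitals mark the serine codon that S489D and S489A replace, within chr7:17339260-17339322.
AHR serine codon: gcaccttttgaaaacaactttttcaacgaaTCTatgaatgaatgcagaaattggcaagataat

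Reads of the introduced AHR fell on these 2 annotated genes, so their counts were also summed. The sum was 450, 480 and 478 CPM in the WT libraries and 292, 305 and 290 CPM in the SD libraries. CPM values are counts scaled to the normalized size of the library. SD lay below WT in every library (edgeR, log2 fold change -0.67, SE 0.05, adjusted p = 4.58e-08), and both lines lay above the V line (69.1 ± 4.51 CPM, mean ± standard deviation, n = 3). An exact permutation test over the libraries gave p = 0.1, the smallest value that 3 libraries against 3 allow. The AHR RNA of the SD and WT lines thus differed in amount as well as in sequence, and the part of the amount in the differences given here was not tested.

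The total of the counts ranged from 7844045 to 11376008 in WT and from 9334091 to 11207920 in SD. A limit of 3 counts corresponds to between 0.264 and 0.382 CPM in these libraries, which covers counting error only. SD replicates 1 and 3 differed more from each other than any other pair of libraries within the SD line or within the WT line. Of the cell type markers, KRT8 and KRT18 of epithelial cells were abundant, at 2604 and 2123 CPM in WT and 2440 and 1962 CPM in SD, while EPCAM and KRT19, also epithelial markers, reached 1.25 and 0.536 CPM at most. The 5 epithelial markers summed to between 4826 and 4859 CPM in WT and to between 4398 and 4628 CPM in SD, a sum made up almost wholly of KRT8 and KRT18 (adjusted p = 0.539 and 0.420). The adhesion protein CDH1, the fifth of these markers, ran the other way, with 116, 112 and 108 CPM in WT and 130.1, 132 and 117 CPM in SD (log2 fold change 0.17, adjusted p = 0.279), and the means of EPCAM and KRT19 were also higher in SD. CDKN2A, a tumour suppressor gene deleted in A549, was at 0 in all 6 libraries, and PECAM1, CDH5 and VWF of endothelial cells summed to 0.176 CPM at most. The 6 fibroblast markers summed to between 5.97 and 7.57 CPM in WT and to between 7.61 and 10.2 CPM in SD, nearly all of it COL1A1, with COL1A2 and DCN at 0 in all 6 libraries. The 5 blood cell markers summed to between 43.2 and 46.3 CPM in WT and to between 47.8 and 53.7 CPM in SD, nearly all of it CD14 and CD68, with PTPRC and CD3E at 0 in all 6.

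Of the 14828 genes tested, 105 differed between SD and WT at an adjusted p under 0.05 (edgeR quasi-likelihood test, 0.708% of the genes). There were 76 genes higher in SD (0.513%) and 29 lower (0.196%). The median log2 fold change of all genes was -0.0008, and 7385 of them had a value above 0. The changes were small, since 5 genes rose and 5 fell by more than 2-fold. In RNA of whole cultures, fewer cells with a transcript and less of it per cell cannot be told apart. Leaving out WT replicate 1, WT replicate 3 or SD replicate 2 reduced the calls to 45, 52 and 53, and leaving out SD replicate 1 left 87 (59 higher and 28 lower).

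RSEM, the program that counted the reads, shares out a read that matches more than 1 gene, which leaves counts that are not whole. Of the 105 genes, 83 had whole counts in all 12 libraries, 64 of them higher and 19 lower in SD. The other 22 genes, 12 higher and 10 lower, had divided counts in at least 1 library, and they held 8 of the 10 changes of more than 2-fold. MAGED4 and MAGED4B, near-identical genes of the MAGE family, had log2 fold changes of 2.61 and -0.87, and their summed counts gave 0.35 (SE 0.10, adjusted p = 0.10). CBWD3 and CBWD6, members of a duplicated family, had 0.65 and -0.71, and the family summed to 0.05 (SE 0.06, adjusted p = 0.848). ZBTB45P1, a pseudogene with a near-identical copy, had -8.24 alone and 0.09 with its copy (adjusted p = 0.883). CDRT4 and IFITM10 overlap read-through or neighbouring genes, and their log2 fold changes of 1.15 and 2.00 became 0.18 and 0.37 in the sums (adjusted p = 0.596 and 0.157). Of 17 such sums other than that of AHR, which held 19 called genes, 3 passed, and the other genes are uncertain when taken alone. The rise was kept in the sum for SIK1B, a kinase gene with a copy named SIK1 (0.34, adjusted p = 9.03e-04), for TGFB2 with TGFB2-OT1 (0.35, adjusted p = 0.00729) and for C1R with C1RL (0.32, adjusted p = 0.0337). NAGLU, a lysosomal enzyme, had divided counts in 3 of 12 libraries and was not summed (0.31, adjusted p = 0.0440). The results that follow rest on the 83 genes with whole counts, except where a divided count is stated. The gene lists were chosen with earlier results of these data known. The share of a list that passed is therefore a description and not a test, to be read beside 0.708% of all genes.

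**Figure D1:**
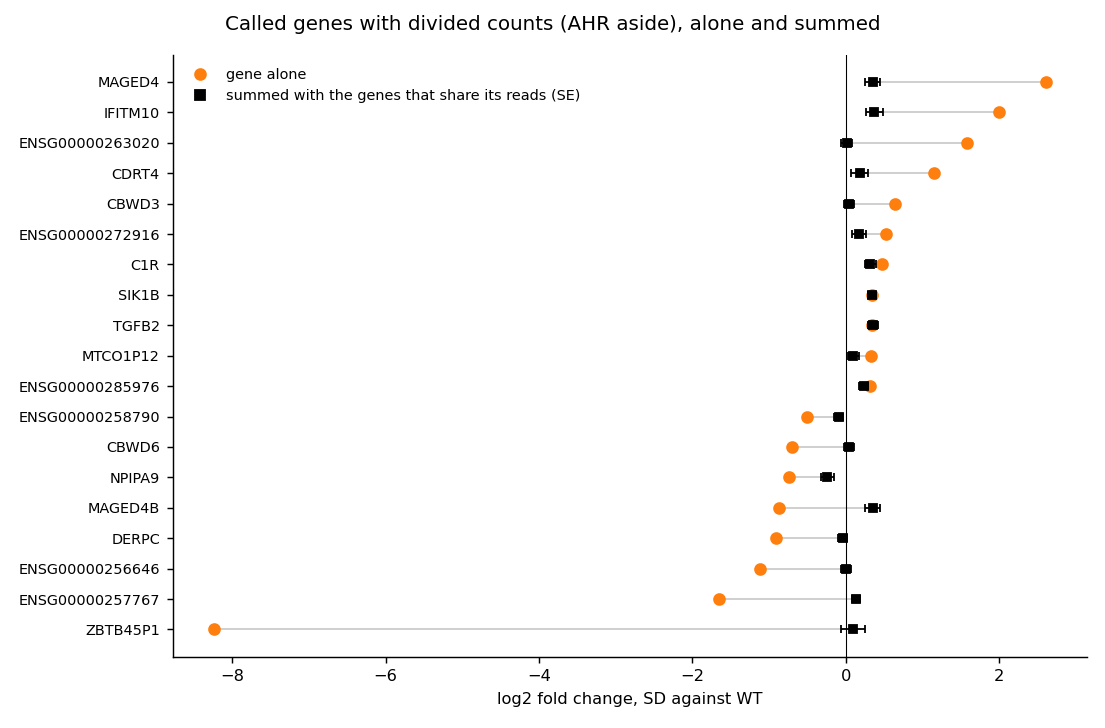
Log2 fold change of SD against WT for the 19 called genes with divided counts that were summed, AHR and ENSG00000283321 aside, alone (orange points) and after their counts were summed with those of the genes that share their reads (black squares with the standard error). These sums lie between -0.24 and 0.37, while the genes alone range from -8.24 to 2.61.

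Genes of the extracellular matrix, the protein network outside cells, were among those raised in SD. Of 20 collagen genes tested, 4 were higher in SD and 0 lower (20% of the tested members, against 0.708% of all genes), another 5 were higher at an unadjusted p under 0.05 without passing the adjusted threshold, and the median log2 fold change of the 20 was 0.21. COL5A1 (ENSG00000130635, chr9:134641774-134844843, plus strand), a chain of the type V collagen that starts fibrils, had 208, 178 and 178 CPM in WT and 284, 265 and 250.0 CPM in SD (log2 fold change 0.51, SE 0.07, adjusted p = 9.21e-05). All 3 SD libraries lay above the 9 libraries of the other lines. COL5A2, its partner chain, had 247 ± 11.4 CPM in WT and 333 ± 38.5 CPM in SD (mean ± standard deviation, n = 3), a log2 fold change of 0.43 (adjusted p = 9.82e-04). COL4A5, a chain of basement membrane collagen on chromosome X, rose by 0.47 on the log2 scale (adjusted p = 8.40e-04), from 101 ± 4.39 CPM to 141 ± 16.9 CPM. COL12A1, which binds along fibrils, had 31.8, 28.9 and 24.3 CPM in WT and 47.2, 44.2 and 36.3 CPM in SD (log2 fold change 0.59, SE 0.11, adjusted p = 0.00626). The SD and WT libraries did not overlap for any of these 4 genes, as for all 76 genes called higher in SD. The lack of overlap came with the call and adds nothing to it. Over all genes, 8.32% had every SD library above every WT library and 7.66% the reverse. The basement membrane chains COL4A1 and COL4A2 had log2 fold changes of 0.25 and 0.22 with adjusted p = 0.0548 and 0.162, and COL18A1 had 0.20 (adjusted p = 0.155). COL1A1, which carries the summed fibroblast markers given above, had 0.29 (adjusted p = 0.633) with libraries of SD and WT that overlapped, and the part of those markers was not tested. COL12A1 had an adjusted p of 0.0573 without WT replicate 3, and the other 3 collagens stayed under 0.05 with each library left out.

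Among 59 matrix glycoproteins and proteoglycans, 6 were higher in SD and 0 lower (10.2%, against 0.708% of all genes). The list's median was 0.12 on the log2 scale. EDIL3 (ENSG00000164176, chr5:83940554-84384880, minus strand), a secreted protein that binds integrins, had 12.6, 12.3 and 12.7 CPM in WT and 24.3, 25.7 and 23.2 CPM in SD (log2 fold change 0.96, SE 0.12, adjusted p = 5.49e-05). Its level in SD was 1.95-fold that in WT, and all SD libraries lay above all 9 others. EFEMP1, a fibulin of elastic fibres, had 15.6, 16.4 and 18.8 CPM in WT and 31.7, 32.4 and 23.4 CPM in SD (log2 fold change 0.78, SE 0.13, adjusted p = 0.00180). SD replicate 3 lay well below the other SD libraries for EFEMP1 and above all WT libraries. FBN2, a fibrillin of microfibrils, had 37.9 ± 4.12 CPM in WT and 53.8 ± 6.11 CPM in SD (log2 fold change 0.50, SE 0.09, adjusted p = 0.00834), and the V line was higher than both (62.5 ± 3.26 CPM). NID2, which links laminin to collagen in basement membranes, rose by 0.52 on the log2 scale (adjusted p = 0.0338). SRPX and the calcium-binding matrix protein SMOC1 rose by 0.47 and 0.37 (adjusted p = 0.0472 and 0.0398). EDIL3 and EFEMP1 stayed under 0.05 with each library left out. For FBN2, NID2, SRPX and SMOC1 the adjusted p reached 0.0876 without SD replicate 2, 0.188 without SD replicate 1, 0.253 without WT replicate 1 and 0.187 without WT replicate 1. SMOC1 lost its call with each of the 6 libraries left out. Unadjusted tests gave 16 higher and 1 lower member at p under 0.05, and RSPO3, a secreted activator of Wnt signalling, was the lower one (-0.29, adjusted p = 0.114). IGFBP7 and SPARC were low in both lines (4.02 ± 0.443 CPM in WT and 6.75 ± 0.143 CPM in SD for IGFBP7, 1.72 ± 0.186 CPM in WT and 3.30 ± 0.475 CPM in SD for SPARC), with adjusted p = 0.116 and 0.263.

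VCAN, a large proteoglycan common in mesenchymal matrix, had the largest change among genes with whole counts, at low levels. It had 1.78, 2.28 and 0.891 CPM in WT and 6.71, 5.90 and 3.12 CPM in SD (ENSG00000038427, chr5:83471618-83582303, plus strand), and the lowest SD library lay above the highest WT library. Its log2 fold change was 1.62 (SE 0.35, adjusted p = 0.0265), the V line had 3.15 ± 0.967 CPM, and the adjusted p reached 0.139 without SD replicate 1. MMP2, a protease of collagen, rose by 0.54 (adjusted p = 0.0215, 0.122 without WT replicate 2). FBN1, the main fibrillin, rose by 0.52 (adjusted p = 5.69e-04), close to FBN2. Of 32 metalloproteinases and their inhibitors, in a list that leaves out MMP2, 0 passed in either direction, 5 were higher at an unadjusted p under 0.05 and the median was 0.13. Among 29 laminins and integrins, 0 passed, and ITGB3 had the smallest p (log2 fold change 0.41, adjusted p = 0.0901, divided counts). The serpins and serine proteases also had 0 of 23 passing, with PLAU, the urokinase activator of plasmin, at -0.24 (adjusted p = 0.0548). ANTXR1, a membrane protein that binds collagen, rose by 0.33 (149.9 ± 6.06 CPM in WT and 189 ± 2.5 CPM in SD, adjusted p = 0.00212) and stayed under 0.05 with each library left out.

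**Figure D2:**
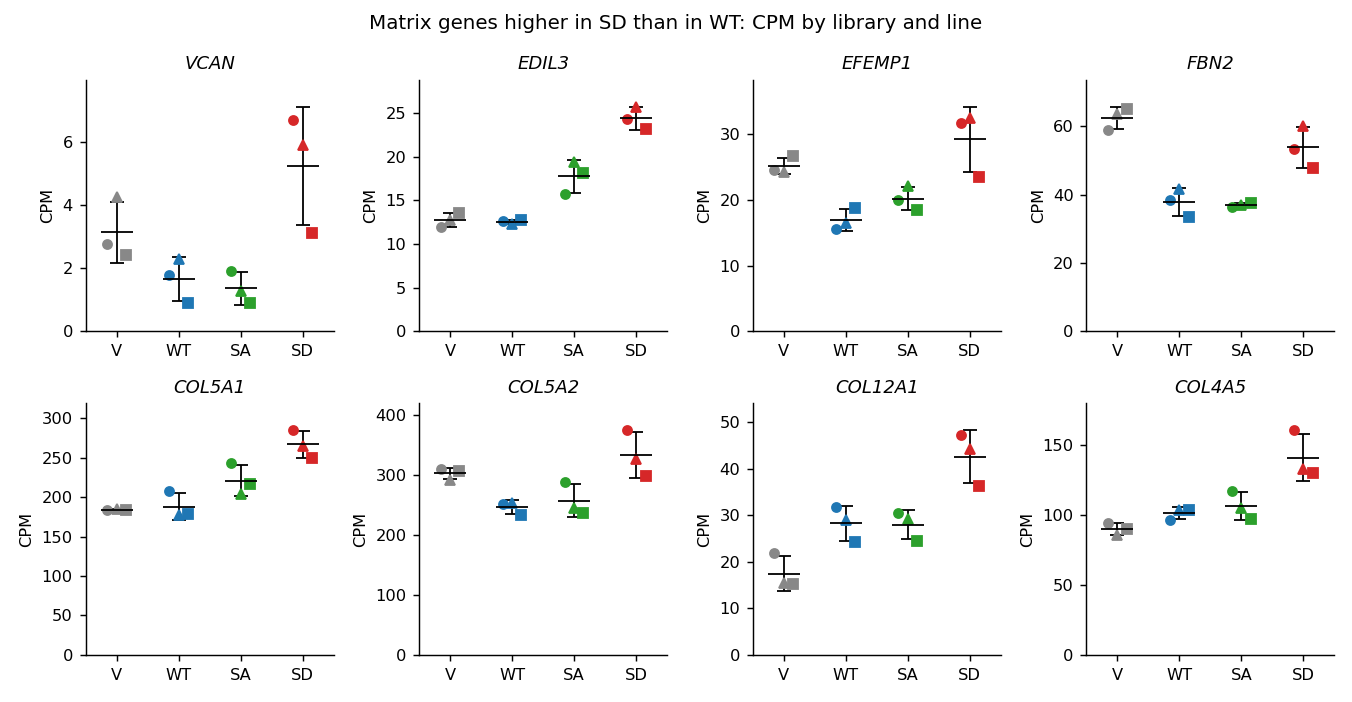
CPM of 8 matrix genes in each library of the V, WT, SA and SD lines. Circles, triangles and squares are replicates 1, 2 and 3, the long bar is the mean and the whiskers are 1 standard deviation (n = 3). The 3 SD libraries lie above the 3 WT libraries in every panel, while the V line lies above SD for FBN2.

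Complement genes were raised as well. Complement is a cascade of blood proteins, mostly made by the liver and also by epithelial cells, that tags surfaces with fragments of C3. Of 37 complement, coagulation and liver-type secreted proteins, 4 were higher in SD and 0 lower (10.8%), and the list's median was 0.17 on the log2 scale. C3 (ENSG00000125730, chr19:6677704-6730562, minus strand), the central component, had 187, 199 and 195 CPM in WT and 315, 268 and 257 CPM in SD (log2 fold change 0.53, SE 0.07, adjusted p = 5.83e-05). SD replicate 1 was the highest, and all SD libraries lay above the 9 other libraries. C1S and C1R, the proteases that start the classical pathway, rose by 0.49 and 0.47 (adjusted p = 0.00774 and 0.00626), with a divided count for C1R. APOE, a lipid carrier, had 9.40, 7.99 and 9.91 CPM in WT and 15.6, 12.9 and 18.4 CPM in SD (log2 fold change 0.80, SE 0.16, adjusted p = 0.0121), while V had 14.4 ± 1.03 CPM. The adjusted p stayed under 0.05 for C3 and reached 0.0665 without SD replicate 2 for C1S and 0.0705 without WT replicate 2 for APOE. C4B, whose counts are divided with its copy C4A, was low (1.19 ± 0.875 CPM in WT and 4.03 ± 1.27 CPM in SD, adjusted p = 0.0542). TFPI, an inhibitor of coagulation, had 0.29 (adjusted p = 0.0896). The blood cell markers CD14 and CD68 had 0.28 and 0.09 (adjusted p = 0.464 and 0.802), and their part was not tested.

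Among 229 solute carriers, 3 were higher and 0 lower (1.31%). SLC1A3 (ENSG00000079215, chr5:36606355-36688334, plus strand), which takes glutamate and aspartate into cells, had 33.2, 29.7 and 29.7 CPM in WT and 58.0, 55.8 and 46.3 CPM in SD (log2 fold change 0.79, SE 0.09, adjusted p = 4.15e-05). Its SD libraries lay above all 9 others, with 35.2 ± 1.76 CPM in SA and 36.3 ± 2.52 CPM in V. SLC16A4, of the monocarboxylate transporter family, had 41.1 ± 1.54 CPM in WT and 59.5 ± 4.34 CPM in SD (log2 fold change 0.54, SE 0.08, adjusted p = 5.89e-04). SLC16A3, the lactate exporter of that family, rose by 0.26 (adjusted p = 0.0298), with 214 ± 25.7 CPM in SA and 206 ± 12.1 CPM in SD. SLC16A3 reached an adjusted p of 0.167 without WT replicate 2, and SLC1A3 and SLC16A4 stayed under 0.05 with each library left out. ABCA7, a lipid transporter, was the 1 gene of 33 ABC transporters that passed (log2 fold change 0.33, SE 0.07, adjusted p = 0.0167), and 10 of the 33 were higher at an unadjusted p under 0.05. ABCA1, the cholesterol exporter, was among these at 0.30 (adjusted p = 0.103). NPC1, which moves cholesterol out of lysosomes, had 229, 233 and 213 CPM in WT and 335, 287 and 281 CPM in SD (log2 fold change 0.42, SE 0.06, adjusted p = 9.68e-04), and GRAMD1B, which moves cholesterol from the plasma membrane, rose by 0.31 (adjusted p = 0.0123). Of 50 genes of sterol and fatty acid synthesis 0 passed, which is near the 0.708% of all genes. At an unadjusted p under 0.05, 7 of the 50 were higher and 2 lower, and the median was -0.0041. KCNMA1, a calcium-activated potassium channel, was the 1 ion channel of 98 that passed, and it was lower in SD (log2 fold change -0.29, SE 0.06, adjusted p = 0.0287, 61.4 ± 0.717 CPM in V). The adjusted p of ABCA7, GRAMD1B and KCNMA1 reached 0.0985 without WT replicate 1, 0.106 without WT replicate 1 and 0.187 without WT replicate 1. KCNMA1 lost its call with each of the 6 libraries left out.

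Secreted signals and their receptors moved in both directions. Of 47 growth factors and receptor tyrosine kinases, 4 were higher and 1 lower (10.6%), with 22 above and 25 below 0 and a median of -0.01. CSF1, the growth factor of macrophages, had 121, 115 and 133 CPM in WT and 161, 142 and 152 CPM in SD (log2 fold change 0.30, SE 0.06, adjusted p = 0.0231). KITLG, the ligand of KIT, VEGFA, the growth factor of vessels, and NTRK3, a neurotrophin receptor, rose by 0.38, 0.29 and 0.27 (adjusted p = 0.0435, 0.0452 and 0.0255). AXL, the receptor of GAS6, fell by 0.25 on the log2 scale, from 454 ± 24.0 CPM to 382 ± 11.1 CPM (adjusted p = 0.0269), and V was lower still (288 ± 5.78 CPM). Of 61 cytokines, chemokines and their receptors, 2 were higher (CSF1 again and CXCL5) and 0 lower (3.28%), with 44 above 0. CXCL5, which attracts neutrophils, had 182, 212 and 202 CPM in WT and 263, 267 and 261 CPM in SD (log2 fold change 0.40, SE 0.06, adjusted p = 4.82e-04), and V exceeded SD (292 ± 10.9 CPM). TGFB2, with divided counts, was the 1 gene of 50 in TGF-beta and BMP signalling that passed (log2 fold change 0.34, SE 0.06, adjusted p = 0.00626), and 39 of the 50 were above 0. In the Wnt pathway 0 of 53 passed, with WNT7B at -0.22 and WNT5A at 0.47 (adjusted p = 0.0614 and 0.0705). S1PR3, a receptor of sphingosine 1-phosphate, and GPRC5C, an orphan receptor, were the 2 of 82 genes for G protein-coupled receptors and RGS proteins that rose (0.30 and 0.35, adjusted p = 0.0280 and 0.0287). NOTCH3, a Notch receptor, rose by 0.35 (adjusted p = 0.0280). Only CXCL5 of the whole-count genes in this paragraph stayed under 0.05 with each library left out, and the highest adjusted p among the others was 0.222 without WT replicate 1, for KITLG. VEGFA lost its call with each of the 6 libraries left out.

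PTGS2, the inducible cyclooxygenase that makes prostaglandins, had 97.6, 120.3 and 110.1 CPM in WT and 159, 138 and 133 CPM in SD (log2 fold change 0.38, SE 0.07, adjusted p = 0.0103). The V line had 159 ± 10.5 CPM, and its libraries overlapped those of SD. PDE10A, which breaks down cyclic AMP, rose by 0.35 (adjusted p = 0.0254), and these were the 2 of 47 genes of the prostaglandin and cyclic AMP pathway that passed (4.26%). In the list for hypoxia and glycolysis, 3 of 48 were higher and 1 lower (8.33%). HIF1A, the transcription factor of the hypoxic response, had 591, 644 and 634 CPM in WT and 716, 736 and 725 CPM in SD (log2 fold change 0.22, SE 0.05, adjusted p = 0.0477), with all SD libraries above the 9 others. VEGFA and SLC16A3, given above, were the other 2 raised members, and PFKFB3, which activates glycolysis, fell by 0.23 (adjusted p = 0.0435). SLC2A3, a glucose transporter with divided counts, and STC1, a secreted hormone, had 0.32 and 0.53 (adjusted p = 0.0531 and 0.0917). For PTGS2, PDE10A, HIF1A and PFKFB3 the adjusted p reached 0.121 without WT replicate 1, 0.183 without WT replicate 3, 0.283 without WT replicate 1 and 0.237 without WT replicate 1. PAPPA, a protease that frees insulin-like growth factors by cleaving their binding proteins, had 246, 260.3 and 266 CPM in WT and 369, 341 and 333 CPM in SD (log2 fold change 0.43, SE 0.06, adjusted p = 9.76e-05). Its antisense gene PAPPA-AS1 had 0.42 (adjusted p = 0.00626). Both genes had whole counts in all 12 libraries, so no read was divided between them, but no source gives the strand setting of the counting, and unspliced PAPPA reads at the place of PAPPA-AS1 could not be told from its own without it.

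**Figure D3:**
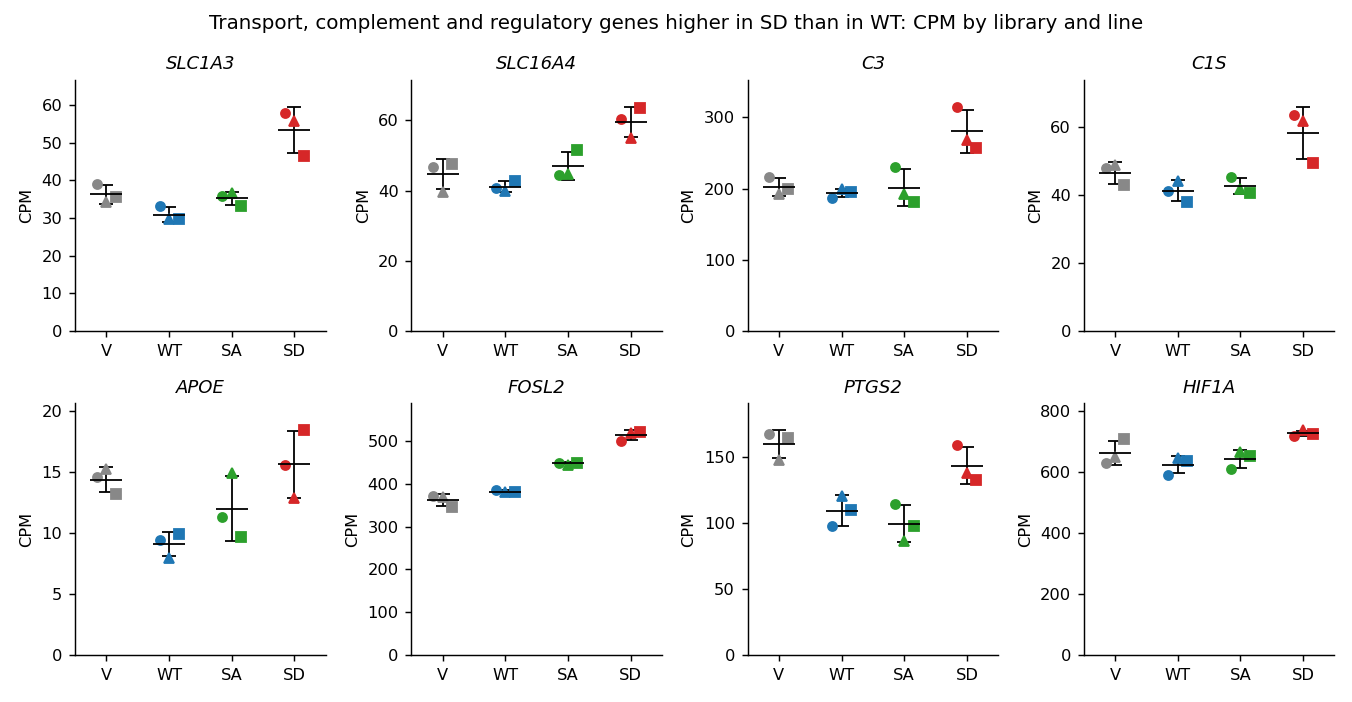
CPM of 8 genes of transport, complement, lipid carriage and regulation in each library of the V, WT, SA and SD lines (circles, triangles and squares for replicates 1, 2 and 3, long bar for the mean, whiskers for 1 standard deviation, n = 3). SD lies above WT in each panel, and the V libraries overlap those of SD for APOE and PTGS2.

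Members of the AP-1 family moved in opposite directions. AP-1 is a dimer of a FOS and a JUN protein that binds the letters TGANTCA in many growth-regulated genes. FOSL2 (ENSG00000075426, chr2:28392448-28417317, plus strand) had 385, 379.9 and 379.6 CPM in WT and 499.6, 518 and 522 CPM in SD (log2 fold change 0.43, SE 0.05, adjusted p = 4.15e-05), with all SD libraries above the 9 others and SA between WT and SD (448 ± 2.53 CPM). FOSL1 had 38.8, 42.3 and 38 CPM in WT and 29.9, 30.1 and 29.7 CPM in SD (log2 fold change -0.41, SE 0.09, adjusted p = 0.0231), and V was the lowest line (22.5 ± 1.6 CPM). These were the 2 of 48 immediate early, AP-1 and NF-kB genes that passed (4.17%), and JUN had -0.35 (adjusted p = 0.235). FOSL2 kept its call with each library left out, and FOSL1 reached 0.129 without WT replicate 2. ZNF503, a zinc finger regulator, was the 1 of 393 genes named ZNF that passed (0.254%), with 39.1, 39.5 and 37.6 CPM in WT and 54.6, 54.4 and 62.8 CPM in SD (log2 fold change 0.56, SE 0.08, adjusted p = 4.82e-04). Other regulators that rose were TOB1, an inhibitor of proliferation (0.25, adjusted p = 0.0280), and SAMD11 (0.40, adjusted p = 0.00390). MYBL1, a MYB-type factor, HMGA1, a chromatin protein, and NPAS2, a partner of ARNTL in the circadian clock, fell by 0.37, 0.24 and 0.27 (adjusted p = 0.0275, 0.0338 and 0.0271). HMGA1 had 794 ± 29.1 CPM in WT, 671 ± 39.1 CPM in SD and 631 ± 36.8 CPM in V. The adjusted p of TOB1, MYBL1, HMGA1 and NPAS2 reached 0.191 without SD replicate 2, 0.154 without WT replicate 1, 0.199 without WT replicate 3 and 0.185 without WT replicate 3.

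Several raised genes belonged to no list above or to lists with a single call. IGFN1, a muscle protein of the immunoglobulin and fibronectin type, had 23.6, 24.0 and 19.9 CPM in WT and 45.0, 43.2 and 35.3 CPM in SD (log2 fold change 0.87, SE 0.11, adjusted p = 5.83e-05). It was the 1 of 83 actin and muscle-type genes that passed, while 53 of the 83 were below 0. NNMT, which methylates nicotinamide, had 78.9 ± 7.05 CPM in WT and 110.3 ± 8.18 CPM in SD (log2 fold change 0.48, SE 0.07, adjusted p = 7.84e-04). NABP1, a protein that binds single-stranded DNA, had 44.8, 44 and 42.5 CPM in WT and 67.3, 71.9 and 52.8 CPM in SD (log2 fold change 0.54, SE 0.09, adjusted p = 0.00313), with 44.3 ± 3.06 CPM in V and 44.9 ± 6.87 CPM in SA. SPP1, the secreted phosphoprotein osteopontin, and HEG1, a membrane protein of cell junctions, rose by 0.40 and 0.39 (adjusted p = 0.00203 and 0.00390). IGFN1, NNMT, NABP1, SPP1, HEG1, ZNF503, SAMD11, PAPPA and NPC1 stayed under 0.05 with each library left out. POR, the electron donor of cytochrome P450 enzymes, ACO1, an aconitase that also binds iron-responsive RNA, and CD24, a surface protein, rose by 0.29, 0.25 and 0.26 (adjusted p = 0.0142, 0.0477 and 0.0231). HSPA2, a chaperone, was the 1 of 63 heat shock proteins and chaperones that passed (0.34, adjusted p = 0.0280). DIO2, which activates thyroid hormone, had 0.54 (adjusted p = 0.0231). It lost its call with each of the 6 libraries left out, at an adjusted p between 0.0503 and 0.131, the highest without WT replicate 3. The adjusted p of POR, ACO1, CD24 and HSPA2 reached 0.0880 without WT replicate 3, 0.255 without WT replicate 1, 0.191 without WT replicate 1 and 0.187 without WT replicate 1. LINC02593, a long non-coding RNA, SH3TC1 and ARRDC3, an arrestin-type protein, rose by 0.58, 0.51 and 0.39 (adjusted p = 0.00962, 0.0338 and 0.0260). The raised genes with whole counts not named elsewhere were SERINC5, PBXIP1, LIMA1, ATP2B4, NCSTN and TSKU, with log2 fold changes between 0.23 and 0.33. Each of these 9 genes lost its call without at least 3 of the libraries.

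Mitochondrially encoded transcripts and the nuclear RNA MALAT1 were higher in SD as well. All 15 mitochondrially encoded genes had a log2 fold change above 0, 3 passed (20%), and the median was 0.18. MT-RNR2, the large ribosomal RNA of mitochondria, had 10805, 10564 and 9398 CPM in WT and 15654, 13010 and 11196 CPM in SD (log2 fold change 0.37, SE 0.08, adjusted p = 0.0298). MT-RNR1, the small one, and MT-ND6 rose by 0.33 and 0.37 (adjusted p = 0.0233 and 0.00626). MALAT1 had 549.5, 549.5 and 495 CPM in WT and 742, 685 and 597 CPM in SD (log2 fold change 0.34, SE 0.07, adjusted p = 0.00987). The means of WT, V, SA and SD were 10256, 11763, 12763 and 13287 CPM for MT-RNR2. For MT-RNR1 they were 1039, 1063, 1198 and 1305 CPM. For MT-ND6 they were 428, 454, 512 and 555 CPM, and for MALAT1 531, 604, 595 and 675 CPM. The SA libraries overlapped those of SD for all 4 genes. In these 4 genes SD replicate 1 was the highest of all 6 libraries and SD replicate 3 the lowest of the SD line. Replicate 3 was also the lowest library of the V, WT and SA lines for each of these genes. The 82 nuclear genes of oxidative phosphorylation had a median of 0.0025, and 0 passed. The same order of the SD libraries was common among the other raised genes, since SD replicate 1 was the highest SD library for 37 of the 64 raised genes with whole counts, and SD replicate 3 the lowest for 33. The median log2 ratio of these genes to the WT mean was 0.49 in SD replicate 1, 0.36 in SD replicate 2 and 0.34 in SD replicate 3. Without SD replicate 1, MT-RNR2, MT-RNR1, MT-ND6 and MALAT1 remained under 0.05. Their highest adjusted p with another library left out was 0.224 without WT replicate 3 for MT-RNR2, 0.176 without WT replicate 3 for MT-RNR1, 0.0732 without WT replicate 1 for MT-ND6 and 0.106 without WT replicate 3 for MALAT1, and each of them lost its call without at least 2 of the libraries. The part of library composition in the raised group was not tested.

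The genes lower in SD were led by CEACAM6 and MUC5AC. CEACAM6 (ENSG00000086548, chr19:41750977-41772211, plus strand), an adhesion protein of epithelial surfaces, had 38, 34.9 and 41.1 CPM in WT and 18.1, 15.5 and 17.6 CPM in SD (log2 fold change -1.15, SE 0.10, adjusted p = 9.17e-07). Its level in SD was 0.452-fold that in WT, all SD libraries lay below the 9 others, and V was the highest line (57.6 ± 5.55 CPM). It was the 1 of 36 immunoglobulin-type and synaptic adhesion genes that passed, and 30 of the 36 were above 0. MUC5AC (ENSG00000215182, chr11:1157953-1201138, plus strand), a secreted mucin of airway goblet cells, had 49.0, 44.9 and 49.3 CPM in WT and 33.9, 22.0 and 29.8 CPM in SD (log2 fold change -0.73, SE 0.11, adjusted p = 7.65e-04). MUC5B, the other main airway mucin, had -0.21 (adjusted p = 0.163), and MUC5AC was the 1 of 9 mucins and airway secretory genes that passed (11.1%). AQP3, a water channel of epithelia, had -0.30 (adjusted p = 0.147). CEACAM6 and MUC5AC kept their calls with each library left out, the 2 genes with whole counts that did so among those that fell. SHROOM3, which shapes the apical side of epithelial cells, had 10.4, 11.1 and 14.5 CPM in WT and 7.71, 6.97 and 7.30 CPM in SD (log2 fold change -0.71, SE 0.17, adjusted p = 0.0435). KRT7 and KRT80, keratins of simple epithelia and of differentiating ones, fell by 0.23 and 0.27 (adjusted p = 0.0309 and 0.0381). They were the 2 of 27 keratins and other intermediate filament proteins that passed (7.41%), and 0 were higher. Of the epithelial markers given above, KRT8 and KRT18 had lower means in SD and CDH1, EPCAM and KRT19 higher ones, and their part was not tested. The adjusted p of SHROOM3, KRT7 and KRT80 reached 0.291 without WT replicate 3, 0.188 without WT replicate 3 and 0.231 without SD replicate 2. SHROOM3 lost its call with each of the 6 libraries left out. The transcription factor gene NR5A2 lay just outside the threshold (-0.37, adjusted p = 0.0514), and HIF1A just inside.

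The other lowered genes included enzymes of biosynthesis and proteins of cell division. SRM, which makes spermidine, had 89.4, 87.3 and 90.8 CPM in WT and 59.3, 71.8 and 75.9 CPM in SD (log2 fold change -0.37, SE 0.08, adjusted p = 0.0210). ODC1, the enzyme before it in polyamine synthesis, had -0.24 (adjusted p = 0.0883), and SRM was the 1 of 51 genes of amino acid, one-carbon and vitamin metabolism that passed. CTPS1, which makes CTP, and GARS, the glycyl-tRNA synthetase, fell by 0.28 and 0.27 (adjusted p = 0.0328 and 0.0206). AURKB, a kinase of chromosome segregation, had 91.6, 89.4 and 86.4 CPM in WT and 69.8, 70.3 and 72.9 CPM in SD (log2 fold change -0.33, SE 0.06, adjusted p = 0.0122), and CEP55, which acts at the end of cell division, fell by 0.26 (adjusted p = 0.0404). ANXA3, an annexin, and OSBP2, an oxysterol-binding protein, fell by 0.34 and 0.48 (adjusted p = 0.0271 and 0.0435). Of these genes AURKB lost its call without the fewest libraries, WT replicate 1 or SD replicate 2, and reached 0.0863 without WT replicate 1. SRM, CTPS1, GARS, CEP55, ANXA3 and OSBP2 reached 0.106 without WT replicate 1, 0.235 without WT replicate 1, 0.154 without WT replicate 1, 0.192 without SD replicate 2, 0.156 without WT replicate 3 and 0.194 without WT replicate 3. OSBP2 lost its call with each of the 6 libraries left out.

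**Figure D4:**
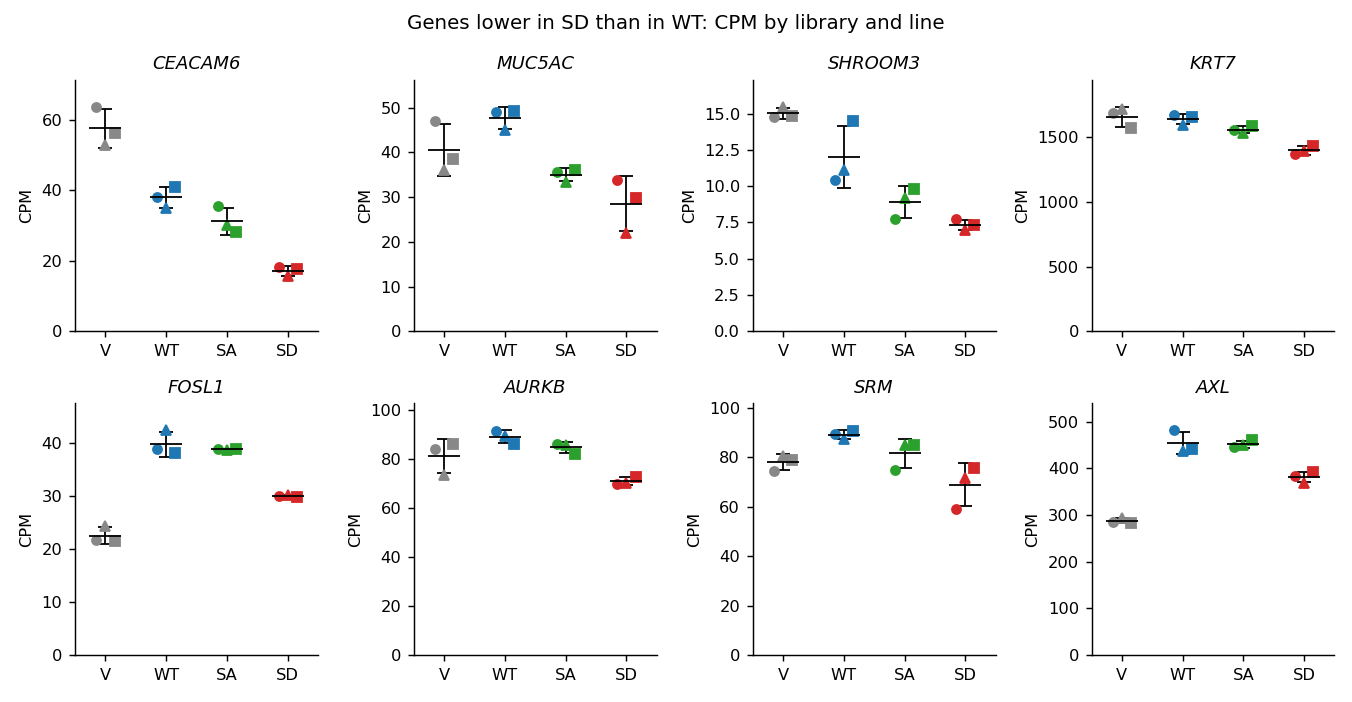
CPM of 8 genes lower in SD than in WT, in each library of the V, WT, SA and SD lines (circles, triangles and squares for replicates 1, 2 and 3, long bar for the mean, whiskers for 1 standard deviation, n = 3). The 3 SD libraries lie below the 3 WT libraries in every panel. The mean of the V line is the highest for CEACAM6, SHROOM3 and KRT7 and the lowest for FOSL1 and AXL.

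In other groups most members shared a direction by small amounts, and few or 0 passed. Of 90 genes of mitosis, 76 were below 0, 15 were lower at an unadjusted p under 0.05 and 0 higher, and the median log2 fold change was -0.08. AURKB was the 1 that passed. PLK1, the kinase of the study's question, had 178 ± 3.87 CPM in WT and 159 ± 6.14 CPM in SD, a log2 fold change of -0.17 (adjusted p = 0.214). DNA replication was similar, with 64 of 71 genes below 0, 17 lower and 0 higher at an unadjusted p under 0.05, 0 passing and a median of -0.09. CDC6, which loads the replicative helicase, had the smallest p (-0.26, adjusted p = 0.0937). Over all genes, 5.83% were higher and 4.82% lower at that threshold. All 18 genes of MHC antigen presentation were above 0, 9 of them at an unadjusted p under 0.05, and 0 passed, with a median of 0.18 and CALR, a chaperone of the endoplasmic reticulum, first by p (0.21, adjusted p = 0.0673). Interferon-stimulated genes had 42 of 55 above 0 and 0 passing.

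The classical AHR targets and partners had 0 of 19 passing. In this list 16 were below 0, 6 were lower and 0 higher at an unadjusted p under 0.05, and the median was -0.11. TIPARP, a target that restrains AHR, had 31.5 ± 3.47 CPM in WT and 25.3 ± 0.269 CPM in SD (-0.31, adjusted p = 0.192). ALDH3A1, an aldehyde dehydrogenase, and HSP90AA1, a chaperone of AHR, had -0.17 and -0.19 (adjusted p = 0.157 and 0.111). The amount of AHR itself was lower in SD, as given above. Of 69 drug-metabolizing enzymes and 41 genes of the NRF2 antioxidant program, 0 passed in each. Cytosolic ribosomal proteins had 63 of 84 below 0 with a median of -0.04, and 0 passed. The lists of 22 cadherins and protocadherins, 20 tight junction proteins, 44 axon guidance genes, 31 histones, 35 lung and gut endoderm factors and 81 homeobox and T-box genes also had 0 passing by edgeR, and at an unadjusted p under 0.05 they had 3, 0, 9, 2, 0 and 6 higher and 0, 0, 2, 1, 2 and 1 lower. A single member passed among 17 circadian genes (NPAS2), 58 genes of ATF4 and the unfolded protein response (GARS), 47 p53 targets (KITLG) and 28 membrane peptidases and peptide hormones (PAPPA), all given above. Of 33 YAP and TEAD targets TGFB2 was higher and AXL lower.

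**Figure D5:**
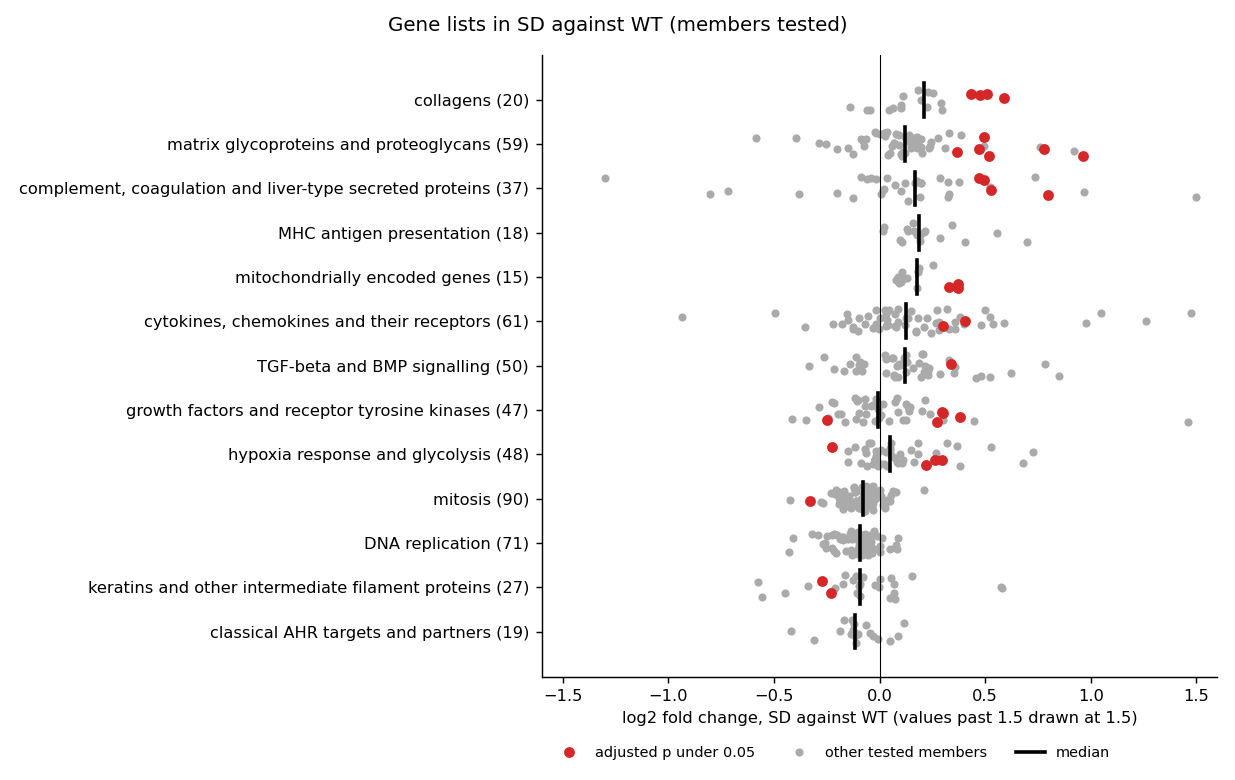
Log2 fold change of SD against WT for every tested member of 13 gene lists (grey points, red for an adjusted p under 0.05), with the list's median as a black bar and the number of members tested in parentheses. Members past 1.5 in either direction are drawn at 1.5. Collagens, complement and MHC genes have medians between 0.17 and 0.21, and DNA replication, keratins and AHR targets have medians between -0.11 and -0.09.

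The SA and V lines took no part in the test, and their levels show where SD and WT stood among the 4 lines. Of the 64 raised genes with whole counts, 32 had all 3 SD libraries above all 9 others, and 9 had all 3 WT libraries below all 9 others. Among all genes with SD above WT in every library, 17.2% and 8.75% did so. The 64 genes were chosen by their SD and WT values, so the shares are a description and no test of where SD or WT stands. The mean of SA lay between those of WT and SD for 55 of the 64, and nearer to WT for 48. The mean of V lay between them for 37, above both for 10 and below both for 17. Genes with SD apart from the 9 others included SLC1A3, EDIL3, C3, FOSL2, NPC1 and HIF1A. For FBN2, CXCL5, SUSD2 and NTRK3 the V line was higher than SD, and nearer to SD than to WT, with 712 ± 24.8 CPM and 591 ± 38.4 CPM for SUSD2 and 257 ± 7.91 CPM and 222 ± 15.6 CPM for NTRK3. Of the 19 lowered genes, 9 had all SD libraries below all 9 others and 3 had all WT libraries above all 9 others, against 14.4% and 11.7% of genes with SD below WT. SA lay between WT and SD for 18 of the 19. The lowered genes were chosen by their SD and WT values too, so the same limit holds.

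Length, base composition and promoter letters of the called genes with whole counts were compared with those of all genes. The median exonic length was 7284.5 bases for the 64 raised genes, 5134 for the 19 lowered genes and 5021.5 for the genes tested. The median GC content was 47.8%, 56.0% and 49.3%. These groups also differed in level, with a median WT mean of 66.9, 97.0 and 24.4 CPM. The part of level in the differences of length and GC content was not tested. The 250 bases before the RefSeq starts (GRCh38.p14) were searched on both strands for GCGTG, the core that AHR with ARNT binds, and for TGANTCA, the AP-1 letters. At least 1 start was found for 48 of the 64 raised and 14 of the 19 lowered genes. With so many of the genes missing from the table the comparison is void as a check, and the shares are given as a description. GCGTG stood in 47.9% of the raised and 42.9% of the lowered genes, against 53.2% of all genes tested with a start and 32.2% of all promoters in the table. TGANTCA stood in 2.08% and 21.4%, against 5.97% and 6.57%, where 21.4% is 3 of 14 genes. A gene was counted when any of its starts had a match, while the shares of all promoters count each start by itself, so these are unlike measures. These matches are letters in a window, not sites of binding. The windows of EDIL3 and CEACAM6 reach into the bounds deposited for these genes, because RefSeq places the starts elsewhere. Of the 2 starts of EDIL3 and the 2 of ANTXR1, the window with the most matches of GCGTG was taken. The promoters of a raised matrix gene with 2 overlapping matches (EDIL3, chr5:84384868-84385117, minus strand), of a raised collagen receptor with 3 matches (ANTXR1, chr2:69012894-69013143, plus strand) and of the gene with the largest fall among whole counts, with 0 matches (CEACAM6, chr19:41755280-41755529, plus strand), are shown for their letters, with matches of GCGTG on either strand in capitals.
EDIL3: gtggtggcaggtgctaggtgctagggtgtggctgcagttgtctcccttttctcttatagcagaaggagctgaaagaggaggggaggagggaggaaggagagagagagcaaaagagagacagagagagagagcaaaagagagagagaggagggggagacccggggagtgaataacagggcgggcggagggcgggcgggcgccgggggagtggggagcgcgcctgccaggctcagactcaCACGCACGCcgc
ANTXR1: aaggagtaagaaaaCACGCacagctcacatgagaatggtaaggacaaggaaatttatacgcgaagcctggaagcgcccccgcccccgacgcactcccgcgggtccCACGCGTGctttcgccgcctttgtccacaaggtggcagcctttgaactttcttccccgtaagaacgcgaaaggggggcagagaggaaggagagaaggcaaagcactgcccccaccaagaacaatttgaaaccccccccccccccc
CEACAM6: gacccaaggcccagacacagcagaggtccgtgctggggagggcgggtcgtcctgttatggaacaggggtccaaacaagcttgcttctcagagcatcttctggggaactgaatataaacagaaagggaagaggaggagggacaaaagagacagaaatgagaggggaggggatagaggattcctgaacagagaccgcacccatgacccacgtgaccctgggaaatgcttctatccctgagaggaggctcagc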

How the data were processed

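Poly(A) RNA of 12 libraries was sequenced. Per the labels and the study's methods, the authors trimmed reads with Trimmomatic 0.39, mapped them to GRCh38 transcripts with RSEM and deposited expected counts of 60623 genes, not normalized. The annotation release is not given in the sources used here. A table of the authors' own edgeR fold changes and p-values for ordered genes was not used.

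The counts, rounded to whole numbers, were fitted with edgeR 4.0.16 (R 4.3.3) on the 3 SD and 3 WT libraries (filterByExpr with minimum count 10 and minimum total 15, TMM factors, trended dispersion, two-sided quasi-likelihood test, Benjamini-Hochberg over 14828 genes, threshold 0.05). Values are CPM with TMM library sizes, as mean ± standard deviation (n = 3). No libraries were copies of one another. Counts of overlapping or near-identical genes were also summed. The procedure was tested on simulated data. Figures were drawn with matplotlib 3.10.9.

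The genes named were AHR and the gene that overlaps it, the 20 largest rises and 15 largest falls, the 10 rises and 10 falls of smallest p, called members of 46 gene lists with up to 4 further members of each, and cell type markers. PLK1 and the called genes outside that rule were added after their values were seen. The comparison, lists and rule were chosen with earlier results of these data known. Alternatives were other filters, DESeq2 1.42.0 and its size factors, all 12 libraries in 1 fit, the replicate number as a block and each library left out, and, added after the data were seen, summed counts and a fit of genes with whole counts. Promoters are from RefSeq, for 10866 genes tested, and coordinates are those deposited.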

Additional observations from a re-analysis of the deposited data

How the results depend on the processing

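No called gene changed sign in any alternative fit over all genes, summed copies aside. The 105 calls (76 higher, 29 lower) became 252 (175 and 77) with every gene of at least 1 count tested, 145 with at least 10 counts in each library, 103 with DESeq2's size factors, 122 with DESeq2, which shared 76 of the 105, and 139 with all 12 libraries in 1 fit. A fit of the 12560 genes with whole counts, added after the data were seen, gave 146 calls and kept all 83. With each library left out in turn, the calls ranged from 45 to 145, those higher in SD from 31 to 106 and those lower from 9 to 39. Removing WT replicate 1, WT replicate 3 or SD replicate 2 lowered the total by more than 1.5 times, and 33 genes stayed called throughout, 23 of them with whole counts. A fit with a replicate block gave 245 calls (165 higher, 80 lower). Libraries with the same number correlated at 0.05, 0.03 and 0.07 in their deviations. Each SD library was highest with the WT library of its own number, and none was over 0.1. These values cannot settle whether the number is a pairing, and the main fit left it out. For MT-RNR2, MT-RNR1, MT-ND6 and MALAT1, given above, replicate 3 was the lowest library in V, WT, SA and SD alike. Whether the replicate number had an effect common to the lines, in these or other genes, was not tested. In sums with overlapping or near-identical genes, MAGED4B went to 0.35, CBWD6 to 0.0469, ZBTB45P1 to 0.0941, ENSG00000257767 to 0.14 and ENSG00000256646 to 9.25e-04. The mucin MUC16, at about 1 CPM, had -0.32, and with each library left out it ranged from -0.955 to 0.0689, the highest value being without SD replicate 2. The cause was not tested. Depth limits genes near 1 CPM, where few reads set the fold change.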
